A study of Mus musculus with 6 samples.

Results

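Krüppel-like factors (KLFs) are transcription factors with 3 zinc fingers near the C-terminus, and 10 of their genes were followed here: Klf2, Klf3, Klf4, Klf5, Klf6, Klf7, Klf10, Klf11, Klf13 and Klf16. They were taken by gene symbol from a table of 17491 genes, and all 10 had a row. The question was how their RNA levels differ when osteoblast cultures receive verapamil, a drug that blocks L-type calcium channels. Bone marrow mesenchymal stem cells of wildtype mice, from tibia and femur, had been brought to day 7 of osteogenic culture with dexamethasone, β-glycerophosphate and ascorbic acid, which both groups received. The control group had 3 libraries and the verapamil group had 3 libraries. Neither dose nor duration of verapamil is stated in the labels, nor whether replicates were separate animals or cultures, so p-values cover only sample-to-sample spread here, which could be technical. Marrow cultures hold other cells beside osteoblasts, and in such bulk RNA a change in cell share and a change in RNA per cell cannot be told apart.

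KLFs bind GC-rich and CACCC-type DNA elements through their zinc fingers, whereas the regions outside the fingers differ and recruit different partners. Klf3, together with Klf8 and Klf12, binds the corepressor CtBP. Klf2, Klf4, Klf5, Klf6 and Klf7 mostly activate transcription through acetyltransferases, although Klf4 can also repress. Klf10, Klf11, Klf13 and Klf16, with Klf9, bind the SIN3 corepressor. Several are immediate-early genes: Klf10 was found as a gene induced by TGF-β in osteoblasts, and Klf2 and Klf4 respond to shear stress in endothelium and restrain inflammatory genes in macrophages.

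Promoter windows are shown for 3 members because they belong to the member with the largest fall (Klf2), its close relative Klf4, which also fell, and the most abundant member, Klf6, which did not pass the test. Each is the 250 bases before the transcription start, on the strand of the gene, from the RefSeq promoter table for GRCm38.p6. The bases just after the start were found in a GENCODE M21 transcript of the gene for Klf2 and Klf6, but not for Klf4. Capitals mark the GC box, spelled GGGCGG. They also mark the box named by its letters CACCC, and the motif of the MEF2 factors. All were searched on both strands. A stretch in capitals can hold overlapping motifs.
Klf2 (chr8:72318812-72319061, plus strand): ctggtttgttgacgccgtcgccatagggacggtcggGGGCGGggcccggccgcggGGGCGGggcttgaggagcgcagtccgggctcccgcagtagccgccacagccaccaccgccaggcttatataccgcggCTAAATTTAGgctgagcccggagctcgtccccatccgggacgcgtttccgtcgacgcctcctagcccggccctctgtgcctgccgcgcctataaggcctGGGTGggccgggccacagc
Klf4 (chr4:55532476-55532725, minus strand): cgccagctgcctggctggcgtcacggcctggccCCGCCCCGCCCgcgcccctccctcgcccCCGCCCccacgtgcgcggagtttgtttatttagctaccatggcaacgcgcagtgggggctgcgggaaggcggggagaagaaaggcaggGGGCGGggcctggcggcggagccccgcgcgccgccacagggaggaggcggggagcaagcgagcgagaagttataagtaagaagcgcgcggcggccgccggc
Klf6 (chr13:5861239-5861488, plus strand): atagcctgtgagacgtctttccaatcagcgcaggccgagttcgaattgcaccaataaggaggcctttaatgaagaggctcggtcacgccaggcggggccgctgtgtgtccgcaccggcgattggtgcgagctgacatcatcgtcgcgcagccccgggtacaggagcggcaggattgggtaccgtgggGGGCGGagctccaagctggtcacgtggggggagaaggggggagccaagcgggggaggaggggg

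Promoter windows were matched for 7 of the 10 members, and Klf5, Klf10 and Klf16 had no entry. A GC box, the kind of element that KLF and SP proteins themselves bind, was present in all 7 windows, against 32.7% of 32851 windows of the same length. Klf3 had 6 matches, Klf4 and Klf11 had 4 each, Klf13 had 3, Klf2 had 2, and Klf6 and Klf7 had 1 each. So the windows of the members that fell and of those that did not pass the test both held the box. GC content was 59.2% for Klf7 to 78.4% for Klf3, and the median over all windows was 52.4%. The Klf7 window (chromosome 1, 64121390 to 64121639) lay inside the Klf7 gene (64029448 to 64122345), so it does not precede the outermost start. CACCC boxes were found in Klf2, Klf3, Klf7 and Klf13, and in 52% of all windows. The MEF2 motif was found in the Klf2 window alone among the 7, beginning 118 bases before the start, and in 2.92% of all windows. Neither CRE (TGACGTCA) nor the CArG box occurred in the 7 windows, against 1.55% and 1.47% of all windows. These matches describe letters in a window and are not measured binding sites.

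With verapamil, 6 of the 10 KLF genes were lower and 0 were higher. These 10 were chosen with earlier results of these data known, so the counts describe this selection and do not test the family. Of the 4 tested KLF genes outside the 10, 1 was lower (Klf12), 1 was higher (Klf15) and 2 were not called. The genes that fell were Klf2, Klf16, Klf4, Klf10, Klf7 and Klf13, in order of size, by between 16.7% and 42.9%. Of all 13366 genes tested, 16.3% were called lower and 15.4% higher, 31.7% in either direction. A call is an adjusted p under 0.05 from the quasi-likelihood test of edgeR, adjusted over all genes by Benjamini-Hochberg. At an unadjusted p under 0.05, 7 members were lower and 0 higher, and both DESeq2 and limma-voom also called 0 higher. The median log2 fold change of the 10 members, all of which were tested, was -0.31, beside 0.0077 over all genes tested. In 8 members every verapamil library lay below every control library, a pattern seen in 24.4% of the genes tested. The reverse pattern was seen in 0 members and 25.2% of genes, and 49.6% of genes showed one or the other. Klf3 and Klf5 were the members whose groups overlapped.

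**Figure D1:**
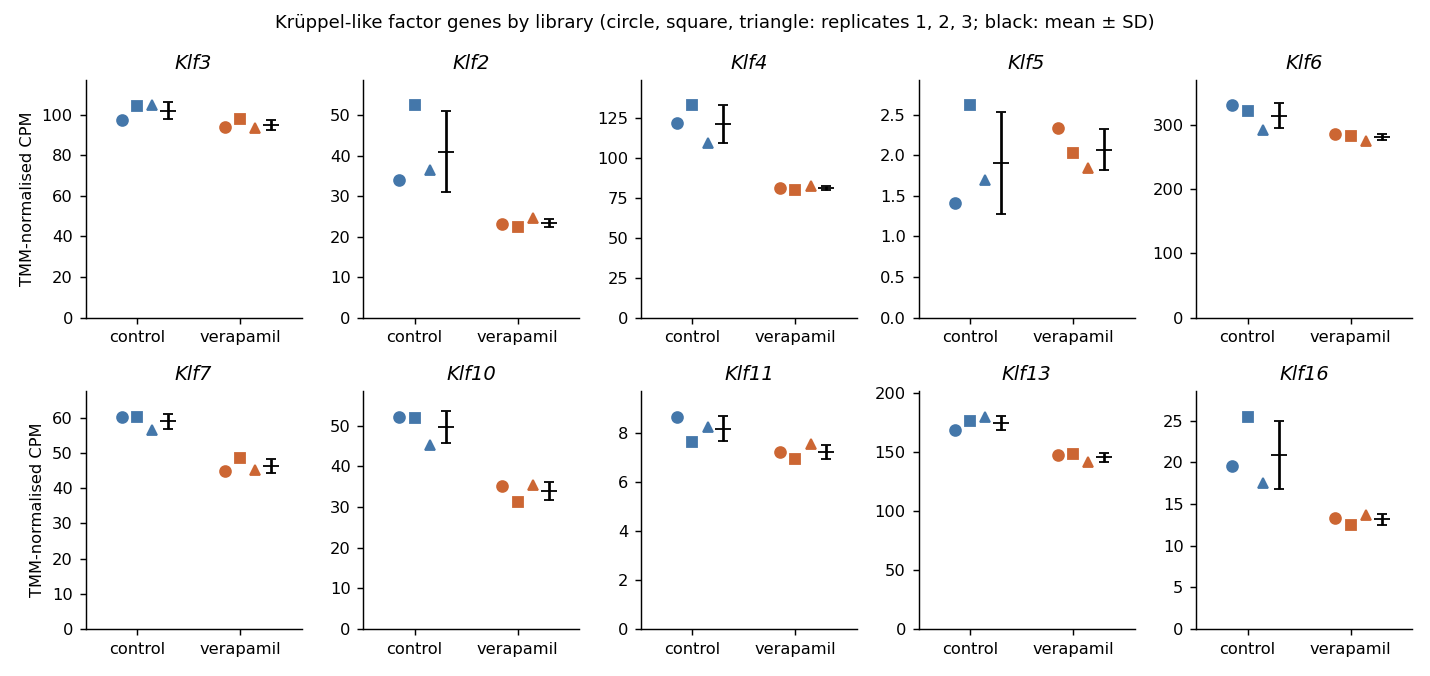
Level of each of the 10 genes in every library, in TMM-normalised CPM (read counts scaled to library size) on axes that start at 0, with replicates 1, 2 and 3 as circle, square and triangle and the mean ± SD in black. Verapamil libraries lie below all controls for Klf2, Klf4, Klf6, Klf7, Klf10, Klf11, Klf13 and Klf16, while the groups overlap for Klf3 and Klf5.

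Klf2, which restrains inflammatory and migratory programmes in endothelium, lymphocytes and macrophages, had the largest fall (Entrez 16598, GRCm38 chromosome 8, 72319062 to 72321654). Its level was 34.0, 52.5 and 36.5 CPM in control replicates 1, 2 and 3, and 23.1, 22.4 and 24.5 CPM in verapamil replicates 1, 2 and 3. The verapamil values lay close together and below all controls, and control replicate 2 stood well above the other controls. The mean went from 41.0 ± 10.0 to 23.3 ± 1.09 CPM (SD, n = 3 per group). Its log2 fold change of verapamil over control was -0.81 ± 0.16 (standard error, SE), with an edgeR adjusted p = 0.00950. Without control replicate 2 it was -0.60 (adjusted p = 1.4e-04). That library also had the highest hypoxia response genes, with a summed level of 932 CPM over 6 genes, against 330 CPM in the lowest control. The part of that in the Klf2 difference was not tested beyond leaving the library out.

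Klf4, a factor of epithelial and smooth muscle differentiation and one of the reprogramming factors, fell with a smaller error than Klf2 (Entrez 16600, chromosome 4, 55527137 to 55532475). It was at 122, 133 and 109 CPM in control replicates 1, 2 and 3, and at 81.0, 79.8 and 82.2 CPM in the verapamil replicates. All verapamil values fell within a narrow band under the lowest control. Means were 121 ± 11.8 and 81.0 ± 1.23 CPM, and the gene fell by 0.58 ± 0.07 SE on the log2 scale (edgeR adjusted p = 0.00110). Klf4 had the smallest adjusted p of the 10 members.

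Klf7, known from neuronal and adipocyte differentiation, fell by less (Entrez 93691, chromosome 1, 64029448 to 64122345). Control replicates 1, 2 and 3 were at 60.2, 60.4 and 56.6 CPM, and verapamil replicates 1, 2 and 3 at 45.0, 48.6 and 45.2 CPM. Both groups were tight and separate (log2 fold change -0.35 ± 0.06 SE, edgeR adjusted p = 0.00396). GENCODE M21 places 3 other genes over the Klf7 locus, and no source used here gives the strand setting of the counting. Reads of those genes cannot be told apart from those of Klf7.

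Klf6, an early-response factor with roles in injury and TGF-β signalling, was the most abundant member in CPM (Entrez 23849, chromosome 13, 5861489 to 5870393). It was at 331, 321 and 292 CPM in the controls and 286, 283 and 276 CPM in the verapamil libraries. Every verapamil value lay below every control value, but by little: the log2 fold change was -0.16 ± 0.06 SE with a 95% interval of -0.31 to -0.01, and the adjusted p was 0.0883 (edgeR). Without control replicate 3, the lowest control, the adjusted p was 0.0189, and it was 0.0768 to 0.240 for the other 5 omissions. With libraries scaled by their totals alone, the log2 fold change of Klf6 was -0.08 (adjusted p = 0.343).

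Klf5, which promotes proliferation in epithelium and smooth muscle, was scarce, with 30.0 to 49.0 counts per library (Entrez 12224, chromosome 14). Its values were 1.41, 2.62 and 1.70 CPM in controls and 2.34, 2.03 and 1.84 CPM with verapamil. Control values spanned all of the verapamil values. The log2 fold change was 0.12 ± 0.25 SE (adjusted p = 0.744, edgeR), and the 95% interval of the fold, 0.729 to 1.63, holds the folds of Klf7 (0.784) and Klf13 (0.833) but not that of Klf2 (0.571). So the values do not exclude a difference in Klf5 of the size seen in Klf7 or Klf13.

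Among the SIN3-binding members, 3 of 4 fell, beside 3 of 5 among Klf2, Klf4, Klf5, Klf6 and Klf7. Of all genes tested, 16.3% were called lower. Klf9, a relative that also binds SIN3, was tested and not called. Klf10, the TGF-β-inducible early gene, was at 52.2, 51.8 and 45.2 CPM in controls and at 35.2, 31.3 and 35.3 CPM with verapamil (Entrez 21847, chromosome 15, 38291464 to 38300711). There was a wide gap between the lowest control and the highest verapamil library. The mean moved from 49.7 ± 3.90 to 33.9 ± 2.30 CPM. On the log2 scale it fell by 0.55 ± 0.08 SE (edgeR adjusted p = 0.00196). Klf11, the second TGF-β-inducible member and the closest relative of Klf10, was at 8.69, 7.64 and 8.27 CPM in controls and 7.23, 6.95 and 7.55 CPM with verapamil. The lowest control and the highest verapamil library nearly met without crossing, and the test was not passed (log2 fold change -0.18 ± 0.10 SE, adjusted p = 0.210, edgeR). For Klf11 the 95% interval of the fold ran from 0.751 to 1.04.

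Klf16, a repressor that competes with SP1 at GC-rich sites, fell the most in this subfamily (Entrez 118445, chromosome 10, 80567121 to 80577296). Control values were 19.6, 25.5 and 17.5 CPM, and verapamil values 13.3, 12.5 and 13.7 CPM. As for Klf2, control replicate 2 was the highest library and the verapamil libraries were nearly equal. The log2 fold change was -0.66 ± 0.14 SE (adjusted p = 0.00824, edgeR), and it was -0.50 without control replicate 2 (adjusted p = 0.00187). Klf13, first known as an activator of the chemokine gene Ccl5 in T cells, was abundant and fell by the smallest called amount (Entrez 50794, chromosome 7, 63886351 to 63938915). It was at 168, 176 and 180 CPM in controls and 147, 148 and 141 CPM with verapamil. The groups were separate and the log2 fold change was -0.26 ± 0.05 SE (adjusted p = 0.00773, edgeR). With libraries scaled by their totals alone, Klf13 was at -0.18 (adjusted p = 0.0472). Klf13 overlaps 2 other GENCODE genes on the opposite strand, with the same limit as for Klf7, and Klf3 also overlaps 2 genes.

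Klf3, the one CtBP-binding member, is a broadly expressed repressor with roles in erythroid and fat cells (Entrez 16599, chromosome 5, 64803521 to 64832901). It was at 97.3, 104 and 105 CPM in controls and 93.8, 97.9 and 93.7 CPM with verapamil. One verapamil library lay above the lowest control. The log2 fold change was -0.10 ± 0.05 SE (adjusted p = 0.188, edgeR), with a 95% interval of the fold of 0.856 to 1.02.

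**Figure D2:**
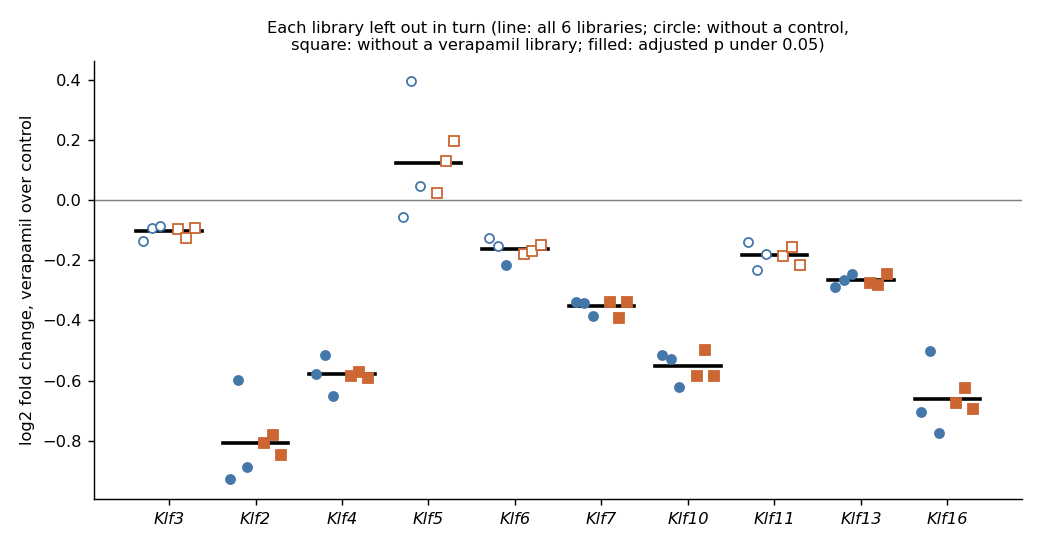
Log2 fold change of verapamil over control for each gene with all libraries (black line) and with each library left out in turn (circles, a control left out; squares, a verapamil library left out; filled, adjusted p under 0.05). Klf2, Klf4, Klf7, Klf10, Klf13 and Klf16 stay below 0 and filled in every case, whereas Klf5 lies on both sides of 0.

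The 6 genes that fell were called with each of the 6 libraries left out in turn. For Klf2 the adjusted p ranged from 1.4e-04 to 0.0416 over these omissions, for Klf16 from 0.00130 to 0.0408, for Klf13 from 0.00259 to 0.0435, and for Klf4, Klf7 and Klf10 it did not exceed 0.0273 (edgeR). The plot of the omissions shows that, among these 6 genes, leaving out control replicate 2 moved Klf2 and Klf16 most. The scarce Klf5, which was not called, moved more, from 0.12 to 0.40. Control libraries were farther apart than verapamil libraries in general: chi-square per degree of freedom between replicate pairs was 12.7 to 50.5 among controls and 3.59 to 6.25 among verapamil libraries.

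Levels of different genes were compared per kilobase of the longest GENCODE M21 coding transcript, in control libraries. Klf6 was highest at 74.5 ± 4.78 CPM per kb, followed by Klf4 at 39.97 ± 3.90 and Klf13 at 27.3 ± 0.903 CPM per kb. Klf2 (22.2 ± 5.43) and Klf3 (19.6 ± 0.790) came next, and the control ranges of Klf13 and Klf2, and of Klf2 and Klf3, overlapped. Klf10 was at 16.3 ± 1.28 CPM per kb, and Klf16 (7.81 ± 1.54) and Klf7 (7.71 ± 0.281) could not be ordered. Klf11 (2.01 ± 0.129) and Klf5 (0.569 ± 0.188) were the lowest. In verapamil libraries Klf2 was at 12.6 ± 0.591 CPM per kb and lay below Klf3, at 18.2 ± 0.463 CPM per kb. The summed level of the 10 genes, in CPM, was 852 to 934 in controls and 721 to 734 with verapamil, of which Klf6 made up 34.3% to 37.0% and 38.3% to 39.0%.

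Related pairs were compared as a ratio within each library, which does not depend on library scaling. Klf10 over Klf11 was 6.01, 6.78 and 5.47 in controls and 4.87, 4.50 and 4.68 with verapamil, so the ratio was lower in every verapamil library. Klf6 over Klf7 went the other way, from 5.33 ± 0.167 to 6.09 ± 0.266. Klf13 over Klf16 was 8.57 ± 1.67 in controls and 11.1 ± 0.800 with verapamil, where the highest control (10.2) nearly met the lowest verapamil library (10.3). Klf4 over Klf2 overlapped between the groups, at 3.03 ± 0.526 and 3.47 ± 0.110. Klf3 over its relative Klf12 was 8.56, 10.4 and 10.0 in controls and 15.1, 17.5 and 13.8 with verapamil. An exact two-sided permutation test gave p = 0.10 for each of the 4 ratios without overlap, the smallest value that 3 against 3 libraries allow, and p = 0.40 for Klf4 over Klf2 (0.125 and 0.4 adjusted over the 5 ratios).

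**Figure D3:**
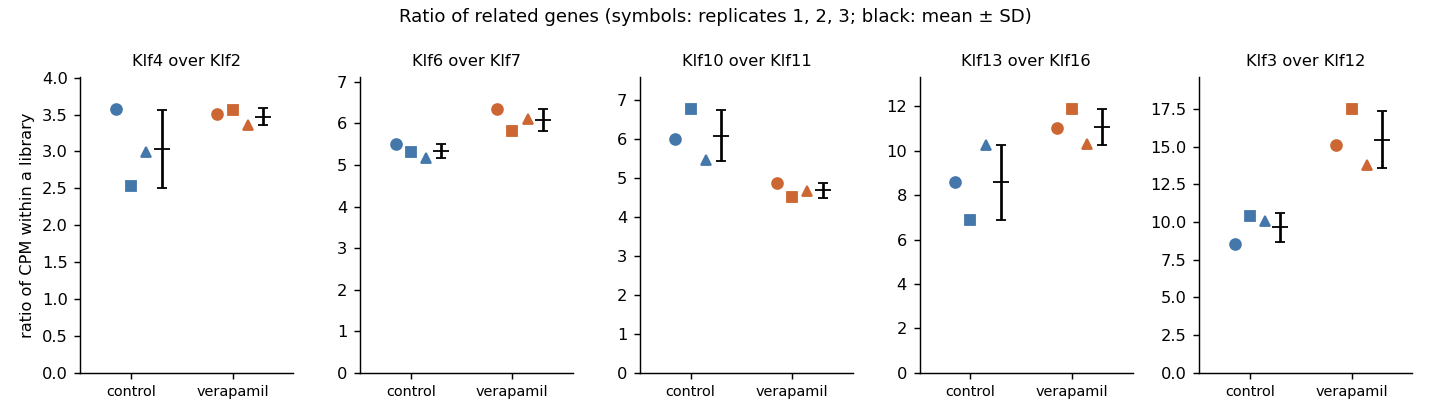
Ratio of CPM between related genes within each library, for 5 pairs, on axes that start at 0, with replicates 1, 2 and 3 as circle, square and triangle and the mean ± SD in black. Klf10 over Klf11 is lower in all verapamil libraries and Klf3 over Klf12 is higher, while Klf4 over Klf2 overlaps.

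The wider family was read from a list of 16 other KLF and SP genes, of which 10 were tested. Among these 3 fell, 1 rose and 6 did not pass, with a median log2 fold change of -0.14. Calls over all genes tested were 16.3% lower and 15.4% higher. Klf12, a CtBP-binding repressor like Klf3, was at 10.6 ± 0.681 CPM in controls and fell to 6.20 ± 0.595 CPM (log2 fold change -0.78 ± 0.11 SE, edgeR adjusted p = 0.00184). The osteoblast factor Sp7 fell by 1.08 on the log2 scale and was called without each library in turn. Sp6, a factor of teeth and skin, was at 2.93 ± 1.08 and 1.47 ± 0.245 CPM (-0.99 ± 0.30 SE, adjusted p = 0.0354), a call that held only when control replicate 3 was the library left out (adjusted p = 0.0556 to 0.119 for the other 5 omissions). Klf15, a glucocorticoid-induced regulator of fuel metabolism, was the relative that rose: it was at 5.64, 5.56 and 8.31 CPM in controls and at 9.57, 11.8 and 10.0 CPM with verapamil (0.68 ± 0.17 SE, adjusted p = 0.0178). Klf15 did not pass without control replicate 1 (adjusted p = 0.0792) or verapamil replicate 2 (adjusted p = 0.0794). Klf9, also glucocorticoid-induced and singled out after its value was seen, was at 183 ± 25.3 and 188 ± 4.65 CPM (0.04 ± 0.09 SE, adjusted p = 0.776).

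**Figure D4:**
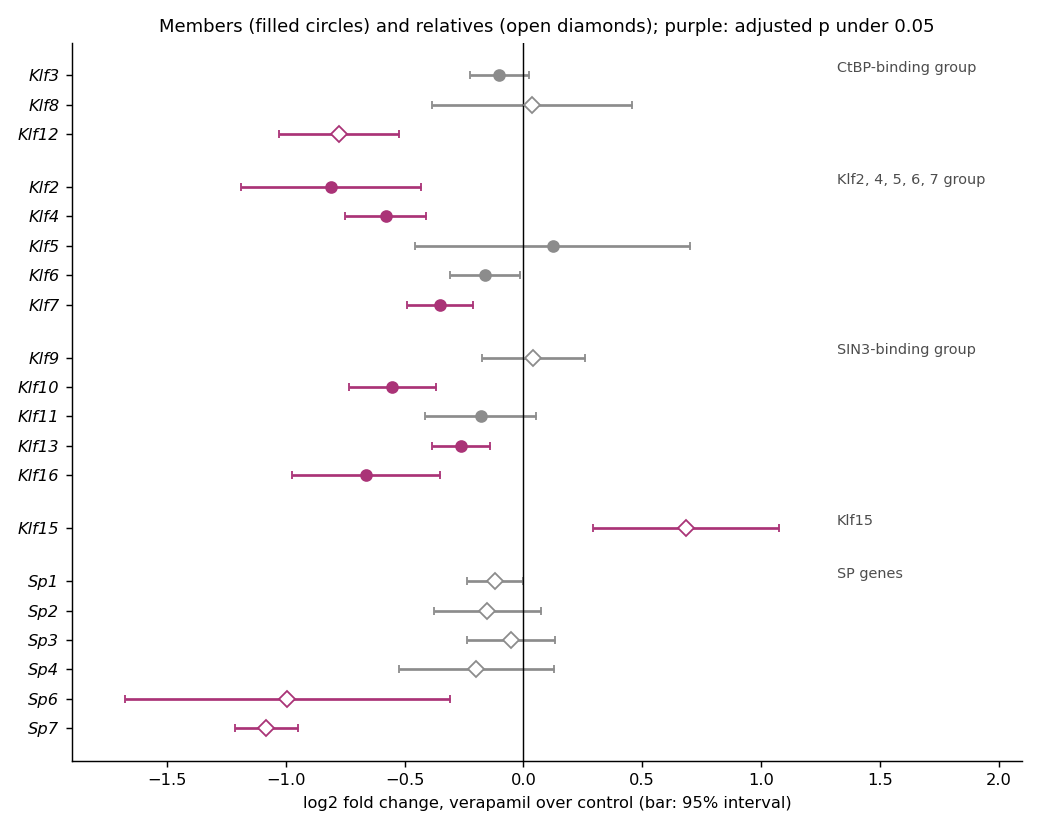
Log2 fold change of verapamil over control with its 95% interval for the 10 members (filled circles) and the 10 tested relatives (open diamonds), arranged by subfamily, with genes at an adjusted p under 0.05 in purple. Called genes lie at both ends of the family, from Sp7 at -1.08 to Klf15 at 0.68, and each subfamily of more than 1 gene holds both called and uncalled genes.

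Genes whose products act on KLFs or with them were read from a list of 18, all tested: 5 fell, 2 rose and 11 did not pass, with a median log2 fold change of -0.11. Over all genes tested, the shares called were 16.3% lower and 15.4% higher. Mef2c, one of the MEF2 factors that induce Klf2 and Klf4 downstream of ERK5, was at 60.1 ± 7.59 CPM in controls and fell to 36.4 ± 1.87 CPM (log2 fold change -0.72 ± 0.09 SE, edgeR adjusted p = 0.00119). It was the largest change in the list. Mef2d (-0.27) and the acetyltransferase Crebbp (-0.30) also fell, and both were named after their values were seen. The ERK5 kinase gene Mapk7, also named after its value was seen, was at 28.9 ± 4.77 and 24.96 ± 2.29 CPM (adjusted p = 0.233). Ctbp2, encoding the corepressor of Klf3, fell by 0.36 on the log2 scale, but omitting control replicate 1, verapamil replicate 1 or verapamil replicate 3 took it past the threshold (adjusted p = 0.0681 to 0.0721).

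The ubiquitin ligase genes Smurf1 and Wwp1 went in opposite directions, and WWP1 is known to target KLF2 and KLF5 proteins for degradation. Wwp1 was at 172, 129 and 207 CPM in controls and at 248, 261 and 240 CPM with verapamil, a rise of 0.56 ± 0.16 SE (adjusted p = 0.0319, edgeR). The controls were scattered, but none reached the verapamil libraries. Smurf1 fell by 0.30 and the deacetylase gene Hdac1 rose by 0.21 on the log2 scale. Wwp1 and Hdac1 lost their calls on omitting control replicate 1 or each verapamil library in turn (adjusted p = 0.0739 to 0.130). Smurf1 lost its call on omitting control replicate 1, verapamil replicate 1 or verapamil replicate 2 (adjusted p = 0.0615 to 0.0809). With the replicate number as a block, Hdac1 (adjusted p = 0.0741) and Smurf1 (adjusted p = 0.0555) were not called. Over the list, 3 members fell on omitting control replicate 1 or verapamil replicate 1, and 0 rose on omitting control replicate 1 or each verapamil library.

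Genes known from other systems as KLF targets numbered 19 on the list, of which 15 were tested: 6 fell, 2 rose and 7 did not pass, with a median log2 fold change of -0.18. Beside these counts, 16.3% of all genes tested were called lower and 15.4% higher. Pdgfa, a growth factor gene induced by Klf5 in vessels, was at 73.6 ± 11.8 CPM in controls and fell to 33.8 ± 1.62 CPM (log2 fold change -1.12 ± 0.11 SE, edgeR adjusted p = 5.71e-04). Tnfrsf11b, which encodes the osteoclast inhibitor osteoprotegerin and is linked to Klf10 in osteoblasts, fell by 0.95 ± 0.09 SE on the log2 scale, with means of 94.3 ± 11.5 and 48.9 ± 2.57 CPM (adjusted p = 3.87e-04). The urokinase gene Plau, a target of Klf6, fell by 0.75 on the log2 scale. Smad7 (-0.65), the TGF-β inhibitor gene that Klf10 and Klf11 repress, Ccnd1 (-0.55) and Tgfb1 (-0.18) were the others that fell, named after their values were seen.

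The listed targets that rose were Lgals3 and Vcam1. Lgals3, a galectin abundant in macrophages and repressed by Klf3, was at 590, 769 and 507 CPM in controls and at 885, 918 and 874 CPM with verapamil (0.52 ± 0.14 SE, adjusted p = 0.0243, edgeR). Vcam1, an adhesion molecule gene restrained by Klf2 in endothelium, was at 171 ± 19.0 and 208 ± 7.70 CPM (0.28 ± 0.08 SE, adjusted p = 0.0341). Omitting control replicate 1 or each verapamil library in turn ended both calls (adjusted p = 0.0653 to 0.125), so 0 listed targets rose in those 4 fits. The endothelial Klf2 targets Nos3 (adjusted p = 0.0723) and Thbd (adjusted p = 0.175), named after their values were seen, did not pass, at log2 fold changes of -0.79 and 0.14.

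Markers of the cells in the cultures moved between the groups. Beside the counts below, 16.3% of all genes tested were called lower and 15.4% higher. All 7 osteoblast markers fell, and their summed level was 23386 to 29065 CPM in controls and 9140 to 10529 CPM with verapamil. Most of these sums was Col1a1, with means of 17067 CPM in controls and 5387 CPM with verapamil. Macrophage markers rose in 6 of 8 cases, with sums of 7269 to 9534 and 13962 to 15907 CPM, but Csf1r (log2 fold change 0.25, adjusted p = 0.111) and Mrc1 (-0.0028, adjusted p = 0.982) did not pass. Most of the macrophage sums was Lyz2, with means of 5536 CPM in controls and 11197 CPM with verapamil. Endothelial markers fell in 3 of 6 cases, with sums of 52.9 to 55.6 and 42.9 to 43.5 CPM, and none of the 6 was at 0. Kdr (log2 fold change -0.20), Tek (-0.21) and Emcn (0.22) did not pass, and every verapamil library lay above every control for Emcn. Hypoxia response genes fell in 6 of 6 cases, with sums of 330 to 932 and 173 to 200 CPM. Neutrophil markers were near 0, with 3 of 6 measured, Elane at 0 in the controls, and sums of 0.597 to 1.08 and 1.21 to 1.59 CPM. Of these, 1 was tested (S100a8, log2 fold change 1.15, adjusted p = 0.0488). The mean count of S100a8 was 8.33 in controls, below the minimum count of 10 used for filtering, and 19 with verapamil. It passed the filter mainly through the verapamil libraries, so no rise in neutrophils is read from its call. Lymphocyte markers, 3 of 5 measured, summed to 0.413 to 0.534 and 0.404 to 0.797 CPM, and erythroid markers, 3 of 4 measured, to 0.0534 to 0.282 and 0.106 to 0.361 CPM. The part of these shifts in the KLF differences was not tested. Library totals were 18.2 M to 21.7 M counts.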

How the data were processed

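The authors deposited 1 table of estimated counts (67.7% not whole), called read counts in its header and scaled to neither depth nor length. The submitters' processing notes name GRCm38 (mm10), with aligner, counter and strandedness not given in the sources used here. Counts were rounded, genes filtered with filterByExpr (minimum count 10, minimum total 15; 13366 of 17491 kept) and scaled by TMM. Verapamil was compared with control in edgeR 4.0.16 (R 4.3.3, robust quasi-likelihood test), with p-values adjusted over all genes tested and calls under 0.05. SEs were derived from the F statistic, by dividing the log2 fold change by its square root. Members and lists were chosen with earlier results of these data known. All members are named, and of each other list up to 3 called genes per direction with the largest change and a mean of at least 1 CPM, or the 2 most abundant where none was called. Intervals are at 95%. On simulated counts for this comparison with 13366 genes and 5 draws, 67.8% of 1.5-fold and 90.2% of 2-fold changes were recovered. Of the simulated calls, 8.6% were false, above the rate of 0.05 set by the threshold. Each draw changed 200 genes and gave both groups the same spread per gene. In the data 31.7% of genes were called and controls were farther apart, so these rates may not carry over. Alternatives used DESeq2 1.42.0 and limma 3.58.1. Coordinates came from RefSeq for GRCm38.p6, matched on Entrez ID.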

Additional observations from a re-analysis of the deposited data

How the results depend on the processing

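The 6 KLF members that fell were called in each of the 17 alternatives in which they were tested: 3 other scalings, 2 other filters, DESeq2, limma-voom, thresholds of 0.01 and 0.10, the replicate block, 6 omissions of a library, and counts without rounding, which was chosen after seeing the data. Klf6 also passed at 0.10 and without control replicate 3, which made 7 members lower. Klf5 ranged from -0.055 without control replicate 1, a reversed sign, to 0.40 without control replicate 2, and with at least 5 CPM in 3 libraries it was not tested. With library totals alone, 63.7% of all called genes were higher, against 48.5% with TMM, and no member changed its call. At a threshold of 0.01, the relatives and the candidate targets had 0 higher, and partners and regulators had 0 higher and 3 lower. Partners that rose numbered 1 without the low-count filter and 1 with the replicate block. With a library left out, the numbers higher were 0 to 1 for relatives, 0 to 3 for partners and 0 to 3 for targets, and partners that fell were 3 to 6. Same-numbered libraries did not deviate together (correlations of 0.01, -0.17 and -0.13 for replicates 1, 2 and 3), so the numbers were not taken as pairs. In the paired fit with the replicate block, all genes called went from 2055 higher and 2180 lower to 1364 and 1589, and 6 members were lower.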
